A study of Mus musculus with 9 samples.

Results

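The genes of DNA replication, cell cycle control and mitosis were examined in hindbrains of mouse embryos that carry 1 of 2 deletion alleles of Zfp423, a transcription factor with a long series of zinc fingers. The set holds 50 genes, listed by symbol, among 48587 genes in the table of read counts. It was drawn up with earlier results of these data known. All 50 were among the 15695 genes with enough counts to be tested. The tissue was hindbrain of C57BL/6N embryos on embryonic day 9.5, untreated, with 3 libraries per genotype. The d9-20 allele lacks exon 4 and is labelled as giving a protein without zinc fingers 9 to 20. The d28-30 allele lacks exons 6 and 7 and is labelled as giving a protein without zinc fingers 28 to 30. The wt libraries came from littermates with the full-length protein. The labels do not say which mutant line the littermates belong to, whether hindbrains were pooled, or that each library is a separate embryo, so p-values measure the spread between these libraries, which may be technical.

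A dividing cell first licenses its replication origins by loading the MCM helicase, then fires them in S phase, and later condenses and separates its chromosomes in mitosis. D-type and E-type cyclins with their kinases drive entry into S phase, CDK inhibitors hold it back, and E2F factors control many of the genes that S phase needs. In the early hindbrain most neuroepithelial cells are cycling progenitors, and cells that become neurons leave the cycle, commonly with a rise in CDK inhibitors. The question put to these data is whether the transcripts of this machinery differ between either Zfp423 deletion and wt, or between the deletions.

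No member passed the test in any of the 3 comparisons by edgeR's quasi-likelihood test with Benjamini-Hochberg adjustment at 0.05. Of all genes tested, 26 (0.166%) were called when d9-20 was set against wt, 25 (0.159%) when d28-30 was, and 0 (0%) between the mutants, so a count of 0 among 50 lies near the background. With a block for the replicate number of every library, 55 genes and 0 members were called in the first of these comparisons. Same-numbered libraries were taken as pairs only between d9-20 and wt. At an unadjusted p under 0.05, 0 of 50 members were found for d9-20 over wt, 4 of 50 for d28-30 over wt and 6 of 50 for d9-20 over d28-30. The same shares over all genes were 5.96%, 8.08% and 9.58%. Without d28-30 replicate 2, a library that stood apart, the member counts were 0, 3 and 3. The shares over all genes were then 8.23%, 6.24% and 7%. Called by limma-voom, the member counts were 0, 0 and 0. Called by DESeq2, they were 0, 1 and 1, the gene being Cdk6 both times.

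The intervals were narrow, with a median standard error of 0.0788 over the members and 0.128 over all genes on the log2 scale. The 95% interval of the fold change lay inside 1.5-fold in both directions for 50 of 50 members with d9-20 against wt, for 47 of 50 with d28-30 against wt and for 48 of 50 between the mutants. Over all genes tested the shares were 70.6%, 67.4% and 67.2%. The members' median log2 fold change was -0.0071 for d9-20 over wt, -0.027 for d28-30 over wt and 0.0090 for d9-20 over d28-30, beside 0.0026, 0.0013 and -0.0086 over all genes. The 50 genes together took 1.33 to 1.39% of all counts in each library. Both mutant comparisons use the same wt libraries, so their values are given side by side and not as independent results.

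**Figure D1:**
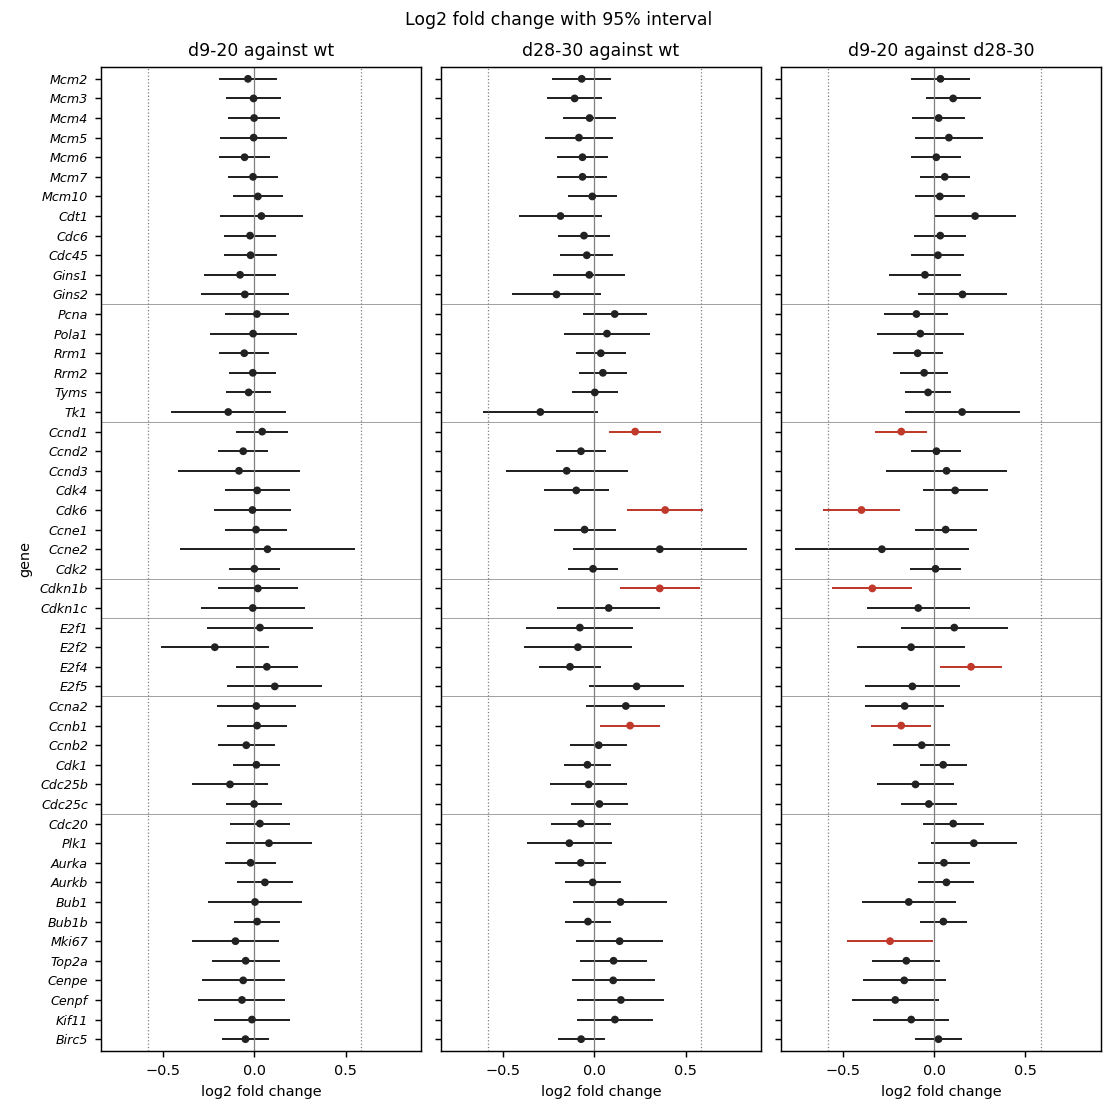
Log2 fold change (horizontal axis) of each of the 50 genes (vertical axis, grouped by role) for d9-20 over wt, d28-30 over wt and d9-20 over d28-30 (panels from left to right), each point with its 95% interval from edgeR. Dotted lines mark 1.5-fold, and red marks intervals that leave out 0 before any adjustment for multiple tests, of which there are 0, 4 and 6.

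Total counts ran from 16903382 to 24216412 per library, so that 3 counts correspond to 0.124 to 0.177 CPM (counts scaled to library size with TMM factors, the unit of all levels here), and the members lay far above that. The targeted gene was higher in both mutants: Zfp423 had 155, 156 and 194 CPM in d9-20, 159, 172 and 183 CPM in d28-30, and 101, 105 and 118 CPM in wt, with log2 fold changes of 0.64 ± 0.10 and 0.67 ± 0.10 (adjusted p = 0.036 and 0.0257). These are counts over the whole gene and do not check the deletion itself. The 10 hindbrain markers, among them Hox genes and Egr2, summed to 221 to 233 CPM in d9-20, 192 to 220 CPM in d28-30 and 219 to 244 CPM in wt, of which En2 alone gave 73.4 to 102 CPM. Of these 10, 9 lay below 0 in d28-30 against wt, and 4 (40%) had all d28-30 libraries below wt, beside 6.17% of all genes, with 0 called. In d9-20 against wt 6 of 10 lay below 0. The 6 forebrain markers tested summed to 39.7 to 53.9 CPM in d9-20, 35.1 to 56.1 CPM in d28-30 and 39.1 to 46.7 CPM in wt. All 6 lay above 0 in d9-20 against wt, with a median log2 fold change of 0.72, and 5 of 6 in d28-30 against wt, with a median of 0.57, with 0 called. The part of either list in the members' values was not tested. One library stood apart: d28-30 replicate 2 differed from every other library by a chi-square per degree of freedom of 27.3 to 63.3, where all other pairs had at most 18.1, and 2.07% of its counts were mitochondrial against 0.904 to 1.42% elsewhere. Gene values named here that it moved by over 1.5 times are given with and without it.

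The members differed widely in level, compared per kb of exon. All annotated exons of a gene were counted in this length, which for many members exceeds that of the longest coding transcript. For Top2a it was 9013 nt against 5221 nt, and for Cdc20 1868 nt against 1793 nt. Levels per transcript length were not taken. In wt, Cdk4, the kinase partner of D-type cyclins, was highest at 307 ± 15.2 CPM per kb, followed by Rrm2, the small subunit of ribonucleotide reductase, at 207 ± 5.32 and Pcna, the sliding clamp of DNA polymerase, at 139 ± 3.26 (SD, n = 3). At the other end stood E2f2 with 7.16 ± 1.12 and Cdk6, the other kinase partner of D-type cyclins, with 3.61 ± 0.169 CPM per kb (SD, n = 3). The highest and the lowest level were 85.0-fold apart. Of 75-base stretches of Cdk4, 28.7% also occur, on either strand, in transcripts of Tspan31. For Pcna, 23.7% also occur in Pcna-ps2, so both levels are uncertain. Of the 49 neighbouring pairs in this order, 35 lay within their spread, so only the broad order can be read. The ranks within a role that follow are for this exon length and may change with transcript length. Among mitosis genes the highest level per kb belonged to Cdc20, the activator of the anaphase-promoting complex, and the lowest to Cenpf, a kinetochore protein. Among licensing genes Mcm3 was highest and Mcm10 lowest, among S, G2 and M phase regulators Ccnb2 (cyclin B2) highest and Cdc25c lowest, and among E2F factors E2f4 highest.

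**Figure D2:**
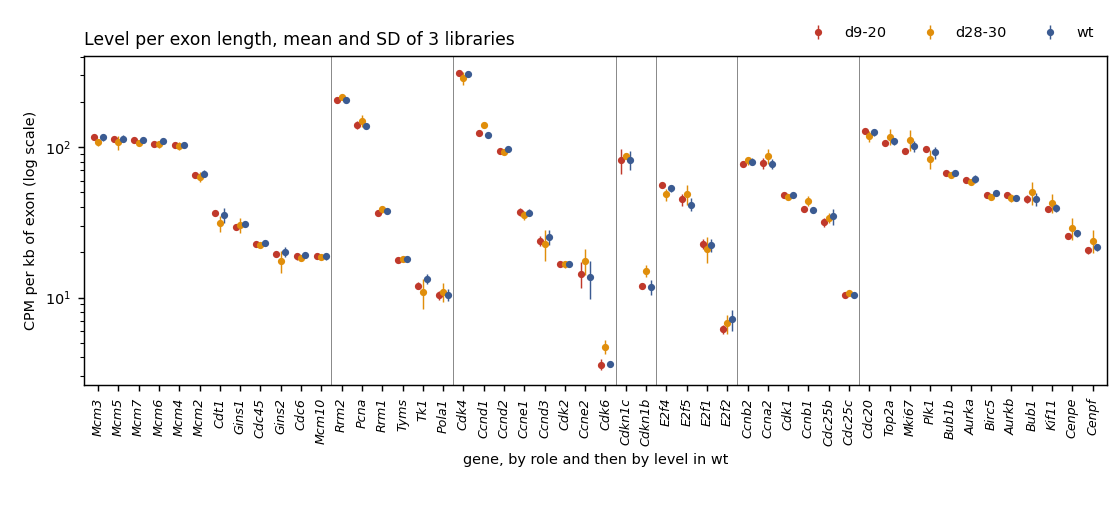
Level per exon length (CPM per kb, log scale) of each gene in d9-20, d28-30 and wt, with the mean and SD of 3 libraries. Genes are grouped by role and ordered by their wt level, and Cdk4 at 307 and Cdk6 at 3.61 CPM per kb in wt mark the ends of the range.

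Promoter sequence was available for 38 of the 50 genes (RefSeq, GRCm38.p6, 250 bases before to 50 after the start). Textbook elements of cell cycle promoters were searched on both strands: an E2F element (TTTCCCGC, TTTGGCGC, TTTCGCGC or TTTGCCGC), the cell cycle homology region, CHR (TTTGAA or TTCGAA), and the CCAAT box (CCAAT). A gene was counted if any of its promoters had a match, and the 38 genes had 41 promoters. An E2F element was found in 10 of 38 genes and 24.4% of their promoters, against 2.26% of all 32851 promoters. A CHR was found in 16 of 38 genes and 39.0% of their promoters, against 19.2% of all promoters. A CCAAT box was found in 29 of 38 genes and 75.6% of their promoters, against 37.4%. By role, an E2F element was found in 6 of 9 licensing genes with a sequence, 1 of 6 synthesis genes, 1 of 5 G1/S genes, 0 of 1 CDK inhibitor, 1 of 2 E2F factors, 1 of 4 S, G2 and M phase regulators and 0 of 11 mitosis genes. A CHR was found in 3 of 9, 0 of 6, 0 of 5, 0 of 1, 1 of 2, 3 of 4 and 9 of 11 in the same order. Differences between roles were not tested. The sequences below show 1 licensing gene with E2F elements (Mcm6), 1 gene with all 3 elements (Cdk1), 1 mitosis gene with repeated CHR and CCAAT boxes (Top2a), and the 2 members with the smallest p in d28-30 against wt (Cdkn1b and Cdk6). Each is 5′ to 3′ on the gene's strand, with the elements in capitals, and elements on opposite strands may overlap in 1 run. A match describes the letters and is not a binding site, and no match says only that these letters are not in this window.
Mcm6, chr1:128359656-128359955, minus strand: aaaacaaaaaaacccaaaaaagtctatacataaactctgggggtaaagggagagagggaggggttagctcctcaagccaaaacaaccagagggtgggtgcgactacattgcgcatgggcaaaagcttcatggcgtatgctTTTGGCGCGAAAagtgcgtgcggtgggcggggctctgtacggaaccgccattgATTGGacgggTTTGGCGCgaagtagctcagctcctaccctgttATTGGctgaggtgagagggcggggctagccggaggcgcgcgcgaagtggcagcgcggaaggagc
Cdk1, chr10:69352863-69353162, minus strand: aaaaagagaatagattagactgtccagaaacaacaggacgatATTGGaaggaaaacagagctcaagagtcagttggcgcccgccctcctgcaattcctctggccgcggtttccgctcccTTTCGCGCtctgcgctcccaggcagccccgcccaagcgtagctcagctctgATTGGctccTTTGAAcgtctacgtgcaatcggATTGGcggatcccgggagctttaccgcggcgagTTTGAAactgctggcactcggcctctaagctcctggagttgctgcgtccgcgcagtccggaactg
Top2a, chr11:99024140-99024439, minus strand: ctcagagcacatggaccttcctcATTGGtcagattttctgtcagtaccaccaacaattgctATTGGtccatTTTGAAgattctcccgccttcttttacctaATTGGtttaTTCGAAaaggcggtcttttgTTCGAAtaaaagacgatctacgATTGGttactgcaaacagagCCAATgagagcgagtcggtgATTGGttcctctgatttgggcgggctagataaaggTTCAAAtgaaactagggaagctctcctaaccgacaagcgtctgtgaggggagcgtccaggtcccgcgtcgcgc
Cdkn1b, chr6:134920151-134920450, plus strand: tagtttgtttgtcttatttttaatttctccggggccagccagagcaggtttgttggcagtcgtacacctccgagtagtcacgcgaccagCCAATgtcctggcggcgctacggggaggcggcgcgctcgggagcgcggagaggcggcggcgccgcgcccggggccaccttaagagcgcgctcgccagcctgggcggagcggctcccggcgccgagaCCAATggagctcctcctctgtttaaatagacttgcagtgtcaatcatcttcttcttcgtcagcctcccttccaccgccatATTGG
Cdk6, chr5:3343643-3343942, plus strand: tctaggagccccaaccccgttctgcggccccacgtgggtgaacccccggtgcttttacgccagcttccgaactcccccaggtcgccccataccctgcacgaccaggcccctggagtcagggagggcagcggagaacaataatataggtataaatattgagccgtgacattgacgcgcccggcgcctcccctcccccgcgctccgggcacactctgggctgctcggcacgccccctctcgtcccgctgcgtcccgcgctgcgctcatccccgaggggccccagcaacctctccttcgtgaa

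Among the 12 licensing and helicase genes, 0 passed the test in any comparison. In d9-20 against wt their log2 fold changes ran from -0.078 to 0.039, with 2 above 0 and 10 below. In d28-30 against wt all 12 lay below 0, with a median of -0.065 and values from -0.21 to -0.011, a sign that 11 of 12 kept without d28-30 replicate 2 (median -0.065). Of all 50 members 29 lay below 0 in this comparison. The 41 further replication genes examined below did not share the shift. Of them 22 lay above 0 and 19 below, with a median of 0.0047. The difference between the 2 lists was not tested. Mcm6, a helicase subunit whose promoter is shown above, had 497, 484 and 491 CPM in d9-20, 476, 515 and 470 CPM in d28-30, and 495, 519 and 515 CPM in wt. The genotypes overlapped. Gins1, a subunit of the GINS complex that activates the helicase, had 43.9, 44.7 and 45.2 CPM in d9-20 and 46.5, 45.5 and 49.2 CPM in wt. Its d9-20 libraries all lay below wt, by a log2 fold change of -0.08 ± 0.09 (SE, adjusted p = 1.00). With Rrm1 (-0.06 ± 0.06), the large subunit of ribonucleotide reductase, Gins1 made up the 2 of 50 members whose d9-20 libraries all lay below wt, where 5.17% of all genes did, and 0 members lay above, where 5.99% did.

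Gins2 had the smallest p of this group in d28-30 against wt. It had 81.0, 58.3 and 74.6 CPM in d28-30 and 76.5, 81.5 and 88.7 CPM in wt, and the log2 fold change was -0.21 ± 0.11 (adjusted p = 0.61). The low library was replicate 2, and without it the value was -0.08 (adjusted p = 0.995). Of 75-base stretches of Gins2 exons, 70.2% also occur, on either strand, in transcripts of its neighbour Gse1. Opposite-strand exons of Gse1 overlap 67.3% of Gins2 exon length. The strand setting of the counting is not given, so the Gins2 count is uncertain. Cdt1, which loads the MCM helicase, had 112, 116 and 114 CPM in d9-20 against 102, 84.5 and 107 CPM in d28-30. The groups did not overlap, and the log2 fold change was 0.22 ± 0.10 (adjusted p = 0.521). Without d28-30 replicate 2 it was 0.13 (adjusted p = 0.848).

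Of the 6 genes of DNA synthesis and nucleotide supply, 0 passed. Tyms, thymidylate synthase, was among the steadiest members, with 107 to 110 CPM in d9-20, 109 to 112 CPM in d28-30 and 108 to 113 CPM in wt. Tk1, thymidine kinase, varied most in this group: it had 62.7, 59.1 and 65.5 CPM in d9-20, 64.7, 41.5 and 62.6 CPM in d28-30, and 64.0, 68.2 and 74.8 CPM in wt. Its log2 fold change in d28-30 against wt was -0.30 ± 0.14 (adjusted p = 0.61), and without d28-30 replicate 2, the library at 41.5 CPM, it was -0.12 (adjusted p = 0.98). Rrm1 had 401, 395 and 404 CPM in d9-20 against 422, 451 and 405 CPM in d28-30, a log2 fold change of -0.09 ± 0.06 (adjusted p = 0.592), and -0.05 (adjusted p = 0.928) without d28-30 replicate 2.

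Among the 8 G1/S cyclins and kinases, 0 passed the test, and 2 of them, Cdk6 and Ccnd1, had all 3 d28-30 libraries above all wt libraries. Cdk6 had 49.97, 46.0 and 54.4 CPM in d9-20, 58.1, 70.2 and 69.8 CPM in d28-30, and 52.1, 47.8 and 51.6 CPM in wt. All d28-30 libraries lay above all d9-20 and wt libraries. The log2 fold change was 0.39 ± 0.09 in d28-30 against wt (95% interval 0.18 to 0.60, adjusted p = 0.252), -0.40 ± 0.09 in d9-20 against d28-30 (adjusted p = 0.329) and -0.01 ± 0.10 in d9-20 against wt (adjusted p = 1.00). Cdk6 passed the threshold in 2 of the 19 alternative analyses. By DESeq2 the adjusted p was 0.0487 in d28-30 against wt and 0.0406 in d9-20 against d28-30. In a fit with a replicate block and a correction for GC content, chosen after seeing the data, it was 0.0306 and 0.0471. That block also joined d28-30 libraries to others by number, although these were not taken as pairs. Without d28-30 replicate 2 the value in d28-30 against wt was 0.34 (adjusted p = 0.328), and with the GC correction alone 0.30 (adjusted p = 0.191).

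Ccnd1, cyclin D1, had 573, 568 and 619 CPM in d9-20, 674, 635 and 686 CPM in d28-30, and 579, 567 and 561 CPM in wt. Its d28-30 libraries lay above all others. The log2 fold change was 0.22 ± 0.06 in d28-30 against wt (adjusted p = 0.380) and -0.18 ± 0.06 in d9-20 against d28-30 (adjusted p = 0.473), and without d28-30 replicate 2 the first was 0.26 (adjusted p = 0.185). With a correction for GC content the first was 0.24 (adjusted p = 0.0524). Of 75-base stretches of Ccnd1, 26.1% are shared, on either strand, with its neighbour LTO1, whose opposite-strand exons overlap 23.4% of Ccnd1 exon length. Ccnd2, cyclin D2, averaged 882 ± 22.9 CPM in d9-20, 874 ± 30.4 CPM in d28-30 and 920 ± 36.4 CPM in wt (SD, n = 3). Its log2 fold change in d9-20 against wt, the smallest p of the group there, was -0.06 ± 0.06 (adjusted p = 1.00). Ccne2, cyclin E2, had the widest range of all members, 2.33-fold, from 32.4 CPM in wt replicate 3 to 75.4 CPM in d28-30 replicate 2.

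Of the 2 CDK inhibitors, Cdkn1b (p27) had 53.5, 57.6 and 52.3 CPM in d9-20, 63.0, 75.8 and 67.8 CPM in d28-30, and 59.2, 54.8 and 47.1 CPM in wt. All d28-30 libraries lay above all others. The log2 fold change was 0.36 ± 0.10 in d28-30 against wt (adjusted p = 0.366) and -0.34 ± 0.10 in d9-20 against d28-30 (adjusted p = 0.392). It was 0.28 (adjusted p = 0.532) in d28-30 against wt without d28-30 replicate 2. With the GC correction it was 0.23 (adjusted p = 0.116) in d28-30 against wt and -0.21 (adjusted p = 0.224) in d9-20 against d28-30. Cdkn1c (p57), an imprinted gene, had 149, 149 and 204 CPM in d9-20, 177, 175 and 181 CPM in d28-30, and 173, 143 and 189 CPM in wt, and the genotypes overlapped. Its log2 fold change in d28-30 against wt was 0.08 (adjusted p = 0.818), and 0.22 (adjusted p = 0.514) with the GC correction. In d9-20 against wt Cdkn1b was at 0.02 ± 0.10 (adjusted p = 1.00).

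Markers of newborn neurons, the cells that have left the cycle, are given beside these. The 15 neuron markers summed to 600, 510 and 807 CPM in d9-20, 979, 916 and 869 CPM in d28-30, and 944, 603 and 855 CPM in wt. Of the 15, 14 had a log2 fold change below 0 for d9-20 over wt, 13 above 0 for d28-30 over wt and 15 below 0 for d9-20 over d28-30, with 0 called in each. Between the mutants 9 of the 15 (60%) had all d9-20 libraries below d28-30, beside 8.19% of all genes. An unadjusted p under 0.05 was found for 26.7% of the 15 in each mutant against wt and for 53.3% between the mutants. The shares over all genes were 5.96% for d9-20 over wt, 8.08% for d28-30 over wt and 9.58% between the mutants. In bulk tissue, fewer cells of a type and less RNA per cell cannot be told apart. The part of neuron number in the values of Cdkn1b, Cdk6 and Ccnd1 was not tested. The 13 erythroid markers summed to 3679 to 4279 CPM in d9-20, 4334 to 6499 CPM in d28-30 and 4139 to 7888 CPM in wt. Of these 13, 12 lay below 0 in d9-20 against wt, 9 of them (69.2%) at an unadjusted p under 0.05 where 5.96% of all genes had such a p, and 11 lay below 0 in d28-30 against wt, with 0 called. The 8 surface ectoderm markers summed to 175 to 221 CPM in d9-20, 157 to 169 CPM in d28-30 and 171 to 252 CPM in wt. Of these 8, 7 lay below 0 in d28-30 against wt, with 0 called. All d28-30 libraries lay below wt for 3 of them (37.5%), beside 6.17% of all genes. All d9-20 libraries lay above d28-30 for 4 of them (50%), beside 8.64% of all genes. The 10 endothelial markers summed to 345 to 382 CPM in d9-20, 310 to 350 CPM in d28-30 and 316 to 333 CPM in wt, and 9 of them lay above 0 in d9-20 against wt, with 0 called. For 3 of them (30%) all d9-20 libraries lay above wt, beside 5.99% of all genes. An unadjusted p under 0.05 was found for 2 (20%), beside 5.96%. In d28-30 against wt these numbers were 2 (20%) beside 6.63%, and 0 (0%) beside 8.08%. The 12 markers of neural crest and mesenchyme were mixed in direction. For d9-20 over wt 8 lay above 0 and 4 below, with log2 fold changes from -1.52 to 0.53. Of the 12, 4 higher and 2 lower (50%) had an unadjusted p under 0.05, beside 5.96% of all genes. All d9-20 libraries lay above wt for 5 (41.7%) and below for 2 (16.7%), beside 5.99% and 5.17%. The smallest adjusted p was 0.0664. For d28-30 over wt 6 lay on each side, and 33.3% had such an unadjusted p, beside 8.08%. Both comparisons had 0 called. Of 10 neural progenitor markers, 5 lay above 0 in d9-20 against wt and 4 in d28-30 against wt, with 0 called. An unadjusted p under 0.05 was found for 20% of them in d9-20 against wt, beside 5.96% of all genes. In d28-30 against wt it was 0%, beside 8.08%. The 8 macrophage markers tested summed to at most 17.9 CPM in any library. The part of these cell types in the members' values was not tested.

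**Figure D3:**
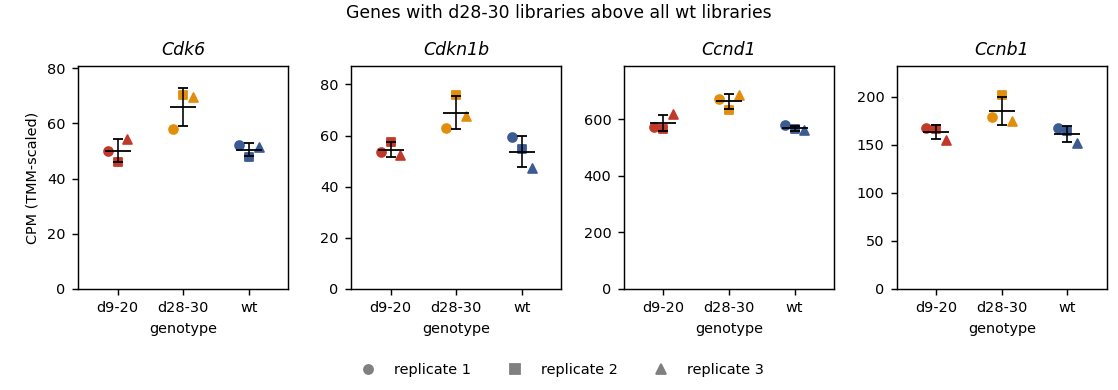
CPM of Cdk6, Cdkn1b, Ccnd1 and Ccnb1 in each library (points, shape by replicate) of d9-20, d28-30 and wt, with the mean and SD of 3 libraries. In each panel the 3 d28-30 points lie above the 3 wt points, and none of the 4 genes passed the test.

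These 3 genes and Ccnb1 were the 4 of 50 members (8%) whose d28-30 libraries all lay above wt, where 6.63% of all genes did, and 0 members lay below, where 6.17% did. The members' share is near the background. Between the mutants, 4 of 50 had d9-20 libraries all above d28-30, where 8.64% of all genes did (Mcm3, Cdt1, E2f4 and Plk1). Another 6 of 50 had them all below, where 8.19% did (Rrm1, Ccnd1, Cdk6, Cdkn1b, Ccnb1 and Top2a).

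Of the 4 E2F factors, 0 passed. E2f2, an activating E2F, had the smallest p of all members in d9-20 against wt, with 30.7, 27.6 and 31.9 CPM in d9-20 and 34.6, 29.6 and 40.6 CPM in wt. The groups overlapped, and the log2 fold change was -0.22 ± 0.13 (adjusted p = 1.00). E2f4, a mostly repressive E2F, had 134, 140 and 136 CPM in d9-20 against 128, 107 and 122 CPM in d28-30, with no overlap, a log2 fold change of 0.20 ± 0.08 (adjusted p = 0.487), and 0.13 (adjusted p = 0.714) without d28-30 replicate 2. E2f5 had the smallest p of the group in d28-30 against wt, at 0.23 ± 0.12 (adjusted p = 0.61), and was at 0.09 (adjusted p = 0.995) without d28-30 replicate 2.

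Of the 6 cyclins, kinases and phosphatases of S, G2 and M phase, 0 passed. Cdk1, the mitotic kinase, was among the steadiest members, with 241, 243 and 229 CPM in d9-20, 234, 228 and 228 CPM in d28-30, and 232, 243 and 234 CPM in wt. Ccnb1, cyclin B1, had 168, 167 and 155 CPM in d9-20, 179, 202 and 175 CPM in d28-30, and 168, 164 and 152 CPM in wt. Its d28-30 libraries lay above the others, by a log2 fold change of 0.20 ± 0.07 against wt (adjusted p = 0.584), and 0.13 (adjusted p = 0.839) without d28-30 replicate 2. With the GC correction it was 0.09 (adjusted p = 0.421). Of its 75-base stretches, 35.2% also occur in pseudogenes such as Ccnb1-ps. Cdc25b, a phosphatase that activates CDK1, had the smallest p of the group in d9-20 against wt, at -0.13 ± 0.10 (adjusted p = 1.00).

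Of the 12 mitosis genes, 0 passed. Their sum was 4226, 4085 and 4089 CPM in d9-20, 4231, 4970 and 4201 CPM in d28-30, and 4406, 4176 and 4155 CPM in wt. The high library was d28-30 replicate 2. In it the mitosis sum was 1.64 times the licensing sum, against 1.22 to 1.40 times in the other 8 libraries. Mki67, the gene of the proliferation marker Ki-67, had 1007, 917 and 929 CPM in d9-20, 1053, 1331 and 991 CPM in d28-30, and 1119, 976 and 970 CPM in wt. Its log2 fold change was -0.24 ± 0.11 in d9-20 against d28-30 (adjusted p = 0.514) and 0.14 ± 0.11 in d28-30 against wt (adjusted p = 0.65). Without d28-30 replicate 2 these were -0.11 (adjusted p = 0.857) and 0.00073 (adjusted p = 0.999). Plk1, a kinase of mitotic entry, had 206, 218 and 220 CPM in d9-20 against 195, 154 and 205 CPM in d28-30, with no overlap and a log2 fold change of 0.22 ± 0.11 (adjusted p = 0.539). Without d28-30 replicate 2 this was 0.10 (adjusted p = 0.88). Top2a, the topoisomerase that untangles chromosomes, had 972, 949 and 940 CPM in d9-20 against 981, 1206 and 995 CPM in d28-30, with no overlap, at -0.15 ± 0.08 (adjusted p = 0.567). It was -0.05 (adjusted p = 0.936) without d28-30 replicate 2 and -0.03 (adjusted p = 0.861) with the GC correction. In d9-20 against wt the smallest p was that of Mki67 (-0.10 ± 0.11, adjusted p = 1.00), and in d28-30 against wt that of Cenpf (0.15 ± 0.11, adjusted p = 0.641). Cenpf was at -0.0089 (adjusted p = 0.999) without d28-30 replicate 2 and at 0.01 (adjusted p = 0.963) with the GC correction. The mitosis median in d28-30 against wt was 0.047, and -0.011 without d28-30 replicate 2.

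**Figure D4:**
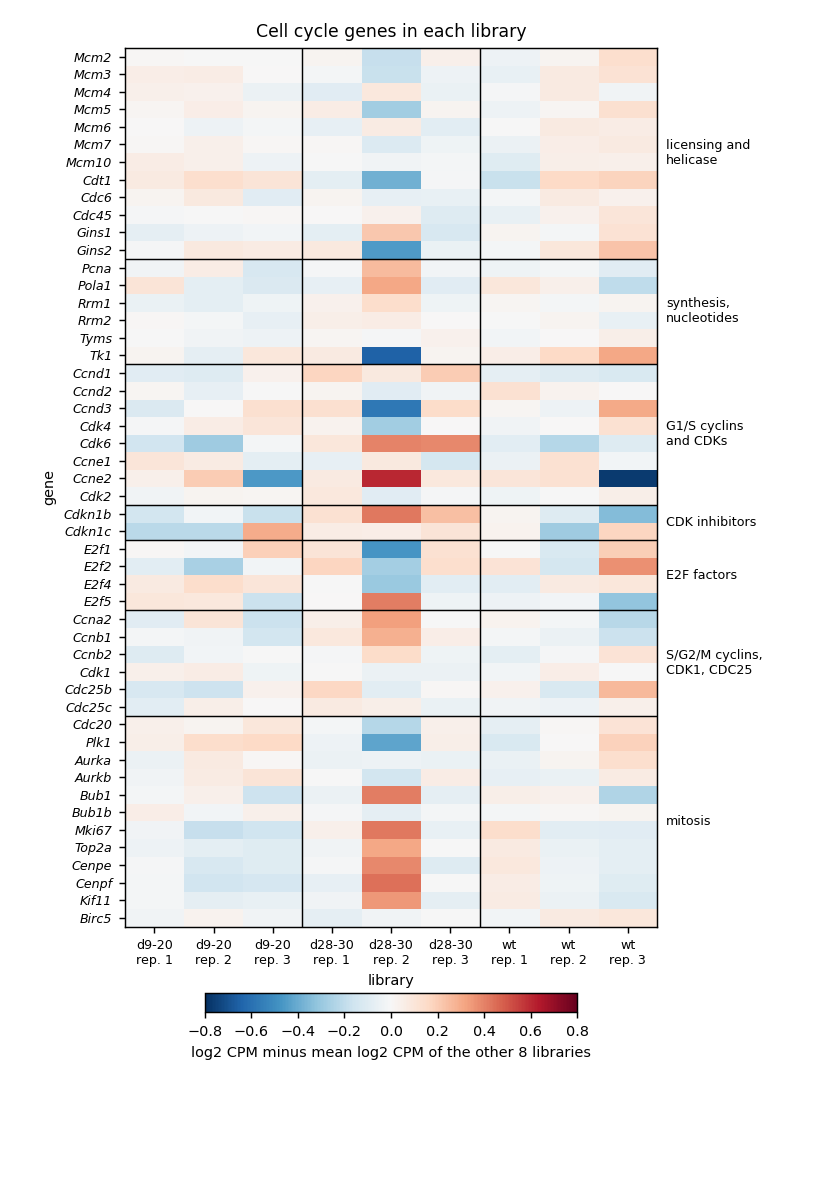
Each of the 50 genes (rows, grouped by role) in each of the 9 libraries (columns: d9-20, d28-30, wt), coloured by its log2 CPM minus the mean of the other 8 libraries. The colours are strongest in d28-30 replicate 2, where 26 of 50 genes lie more than 0.2 from that mean, followed by wt replicate 3 with 11.

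In 3 libraries the members' deviations followed the base composition of their transcripts. Across the 50 members, the correlation between a gene's deviation in a library and the GC content of its transcript was 0.84 in d9-20 replicate 3, -0.86 in d28-30 replicate 2 and 0.81 in wt replicate 3. Across 15239 genes the same correlations were 0.42, -0.66 and 0.46. These are descriptions across genes of 1 library, which share its preparation, and genes are not independent replicates. In d28-30 replicate 2, the 25 members with the lowest GC had a median deviation of 0.28 and the 25 with the highest -0.18. Ccne2, at 36.3% GC the lowest of all members, deviated by -0.46, 0.60 and -0.76 in the 3 libraries named. A correction for GC content, chosen after seeing the data, lowered the biological coefficient of variation over 15239 genes to 0.0734, against 0.110 without it. With it 135, 113 and 13 genes were called in the 3 comparisons, with 0 members in each, and all 50 members had intervals inside 1.5-fold. At an unadjusted p under 0.05 there were then 1, 10 and 9 members. The share of all genes with such a p was not taken in this fit, so these counts have no background to be judged by. Ccne2 in d28-30 against wt was 0.06 with it, against 0.36 without, and 0.18 without d28-30 replicate 2.

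**Figure D5:**
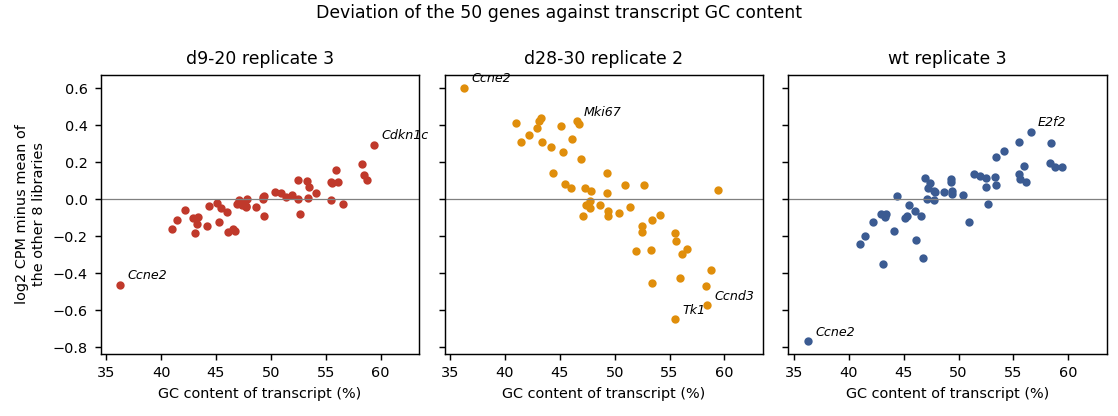
Deviation of each of the 50 genes (log2 CPM minus the mean of the other 8 libraries, vertical axis) against the GC content of its transcript (percent, horizontal axis) in d9-20 replicate 3, d28-30 replicate 2 and wt replicate 3. The points rise with GC in the first and the third library (r = 0.84 and 0.81) and fall in d28-30 replicate 2 (r = -0.86).

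Other genes of the cell cycle were examined in 3 lists of 111 genes: further replication genes, further G1 regulators and further mitosis genes. Of these, 108 were tested, and 0 were called in any comparison. At an unadjusted p under 0.05 there were 2 for d9-20 over wt (1.85%), 8 for d28-30 over wt (7.41%) and 5 for d9-20 over d28-30 (4.63%). Called by limma-voom there were 0 in each, and by DESeq2 0, 0 and 1, the last being Myc. Orc6, a subunit of the origin recognition complex, had 91.9, 95.3 and 86.8 CPM in d9-20 against 103, 110 and 97.7 CPM in wt, at -0.18 ± 0.07 (adjusted p = 0.707). Myc, a growth-promoting transcription factor, had 47.4, 48.8 and 44.2 CPM in d9-20, 37.3, 31.9 and 35.6 CPM in d28-30, and 39.1, 42.6 and 43.5 CPM in wt. Its d28-30 libraries lay below all others and its d9-20 libraries above all others. The log2 fold change was 0.42 ± 0.09 in d9-20 against d28-30 (adjusted p = 0.236), -0.26 ± 0.09 in d28-30 against wt (adjusted p = 0.504) and 0.17 ± 0.09 in d9-20 against wt (adjusted p = 0.935). Mycn, its relative in neural progenitors, had 145, 150 and 150 CPM in d9-20 against 121, 110 and 126 CPM in d28-30, at 0.32 ± 0.08 (adjusted p = 0.341). Rb1, which restrains E2F, was at 0.47 ± 0.19 in d28-30 against wt (adjusted p = 0.596), with 43.9, 67.0 and 39.4 CPM in d28-30 and 43.4, 36.3 and 29.1 CPM in wt, and the high library was d28-30 replicate 2. Without that library Rb1 was at 0.20 (adjusted p = 0.994). Cdkn2c, a CDK4 and CDK6 inhibitor, had 1.52, 1.61 and 2.73 CPM in d9-20 against 3.49, 1.86 and 4.01 CPM in wt, at -0.67 ± 0.30 (adjusted p = 0.819).

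The counting of several members is uncertain. For 12 of the 50, more than 5% of 75-base stretches also occur in transcripts of other genes, searched on both strands. Exons of a gene on the opposite strand overlap 11 of the 50 by more than 5%. The 2 counts share genes, among them Gins2 and Ccnd1, since a stretch in an opposite-strand overlap enters both. The library kit marks strand, but the strand setting of the counting is not given in the sources used here.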

How the data were processed

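Total RNA went into stranded TruSeq libraries read as single 75-nt reads, per the labels' protocols. The authors deposited whole-number read counts per gene symbol, not normalized. The submitters' processing notes name STAR 2.5.3a, featureCounts, limma and the build mm10 (GRCm38). Annotation release, strand setting and the handling of multiply matching reads: not given in the sources used here. The table has 0 columns of unlisted samples. Libraries whose title has no number are called replicate 3.

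Counts were filtered (filterByExpr), scaled (TMM) and fitted in edgeR 4.0.16 (R 4.3.3) with genotype as the only factor over all 9 libraries. P-values were adjusted over all genes tested. Standard errors are the log2 fold change over the square root of F. The code was tested on simulated data. Alternatives were DESeq2 1.42.0, limma-voom (limma 3.58.1), other scalings and filters, a replicate block and leaving out each library. A correction for transcript GC content, a lowess curve (span 0.3) per library used as an offset, alone and with the block, was added after seeing the data. Same-numbered libraries were taken as pairs where the correlation of their deviations exceeded 0.1 in every pair, since no label names a litter or batch. It was 0.133, 0.269 and 0.494 between d9-20 and wt, and -0.211, 0.196 and 0.243 between d28-30 and wt. Between the mutants it was 0.0951, 0.162 and 0.229. Only d9-20 and wt were thus taken as paired, and the set between the mutants missed the limit by little. These deviations were not corrected for GC content. Deviations of d9-20 replicate 3 and wt replicate 3 both rose with it (r = 0.42 and 0.46 across 15239 genes). The part of GC content in the pairing was not tested. The main fit uses no pairing, also between d9-20 and wt. The block was nevertheless fitted to the numbers of all 9 libraries, so its d28-30 values rest on pairs that missed the rule.

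Exon lengths, GC content and shared 75-base stretches come from GENCODE M21 (GRCm38). The members, lists and tests were chosen with earlier results of these data known. Named are members past the threshold, in each of 7 role lists those with the smallest p in a comparison or the highest or lowest level, members with the largest differences without overlap, and the other cell cycle genes with the smallest p. Others were named after their values were seen.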

Additional observations from a re-analysis of the deposited data

How the results depend on the processing

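In 19 alternatives per comparison, 0 member log2 fold changes reversed a call. The main fit called 0 members, so a reversal could be counted only where an alternative made a call. Signs without a call did change. With the GC correction alone, 1 of 6 synthesis genes lay above 0 in d28-30 against wt, where 5 of 6 did without it. The mitosis median there was -0.032, against 0.047 without it. Of 950 member values each, 949 stayed within 1 SE for d9-20 over wt, 894 for d28-30 over wt and 894 between the mutants. The moved ones came from the GC correction (36, and 36 with the block), from leaving out d28-30 replicate 2 (34), d9-20 replicate 3 (2) and wt replicate 3 (1). Members called numbered 1 in d28-30 against wt and 1 in d9-20 against d28-30 with DESeq2 and with the replicate block and GC correction together, Cdk6 each time. They numbered 0 elsewhere, and 0 to 0 when a library was left out. The replicate block alone called 0 members in each comparison. It covered the d28-30 libraries too, although their same-numbered pairs did not meet the rule for pairing.

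Counts over all genes depended on the analysis. In d9-20 against wt (26) they were 148 with no filter, 113 with DESeq2, 40 with only the 2 genotypes compared, 55 with the replicate block, 135 with the GC correction and 198 with both, and 6 to 93 without 1 library (93 without d28-30 replicate 2). In d28-30 against wt (25) they were 98, 90, 12, 48, 113 and 147, and 10 to 33 without 1 library (10 without wt replicate 3). In d9-20 against d28-30 (0) they were 133, 72, 0, 2, 13 and 47, and 0 to 4 without 1 library (4 without d28-30 replicate 2). The cause was not tested. The members' median was -0.040 to 0.0016 for d28-30 over wt, -0.019 to 0.012 for d9-20 over d28-30 and -0.026 to -0.0035 for d9-20 over wt when a library was left out, and its sign in the first 2 depended on which. With 3 libraries a genotype and a median SE of 0.0788 for members, small differences were not detectable.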
